A study of Mus musculus with 6 samples.

Results

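The laminin chains and laminin receptors of the Schwann cell basal lamina were examined in whole sciatic nerve of 10-month-old mice. They are 10 genes out of 22180 tested: the laminin chain genes Lama2, Lama4, Lamb1, Lamb2 and Lamc1, the integrin genes Itga6, Itga7, Itgb1 and Itgb4, and the dystroglycan gene Dag1. They were taken by symbol, 1 probe set per gene, and all 10 were found. Nerves labelled Srebf-1c KO (3 arrays) were set against nerves of wild-type littermates (3 arrays), with 1 Affymetrix whole-transcript array per sample. Srebf-1c is a form of the transcription factor gene Srebf1, known for driving fatty acid synthesis genes. The labels name no strain, no sex and no cell type of deletion, and they number the samples without saying that each came from another mouse, so the spread between samples may be partly technical.

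Each Schwann cell in a peripheral nerve is covered by a basal lamina, a thin sheet of matrix that it makes itself. Laminins, the main builders of that sheet, are trimers of an alpha, a beta and a gamma chain, and the alpha chain largely sets which receptor is bound. Integrins, each a pair of an alpha and a beta subunit, and dystroglycan hold the cell membrane to the laminin and are needed for Schwann cells to sort axons and to keep stable myelin. Vessels, the perineurium and skeletal muscle also have basal laminae and share several of these genes.

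The promoters of 5 of the 10 genes were at hand in the RefSeq table of GRCm38.p6, as 6 entries of 300 bases (250 before to 50 after a gene start): those of Lama2, Lamb1, Lamb2, Itgb1 and Dag1. They were searched on both strands for a core of the sterol regulatory element (TCACNCCAC), the E-box CACGTG, both of which SREBP proteins are known to bind, and the boxes GGGCGG and CCAAT of the common SREBP partners Sp1 and NF-Y. Of the 6 entries, 0 held TCACNCCAC, which 1.24% of all 32851 promoters in the table held, and 0 held CACGTG, which 7.15% held. GGGCGG stood in 5 of the 6, against 35.7% of all, and CCAAT in 3, against 37.4%. The 6 include 2 overlapping entries of Dag1. A letter match is no proof of a binding site, and a window without a match says nothing of binding elsewhere. The alpha chain with the highest fold change, the beta chain with the lowest and the dystroglycan gene are printed with GGGCGG and CCAAT of either strand in capitals. For Dag1 the entry that starts farther upstream is shown.
Lama2, chr10:27616893-27617192, minus strand: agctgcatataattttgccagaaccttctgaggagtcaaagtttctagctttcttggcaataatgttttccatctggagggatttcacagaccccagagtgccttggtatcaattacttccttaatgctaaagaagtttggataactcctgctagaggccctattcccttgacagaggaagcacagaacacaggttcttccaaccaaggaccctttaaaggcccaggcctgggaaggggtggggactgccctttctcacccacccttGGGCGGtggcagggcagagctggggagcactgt
Lamb2, chr9:108479612-108479911, plus strand: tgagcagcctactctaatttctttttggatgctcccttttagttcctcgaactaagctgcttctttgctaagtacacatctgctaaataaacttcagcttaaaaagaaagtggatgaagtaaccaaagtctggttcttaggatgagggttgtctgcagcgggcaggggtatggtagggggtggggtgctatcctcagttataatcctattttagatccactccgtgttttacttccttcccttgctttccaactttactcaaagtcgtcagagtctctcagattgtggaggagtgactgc
Dag1, chr9:108263909-108264208, minus strand: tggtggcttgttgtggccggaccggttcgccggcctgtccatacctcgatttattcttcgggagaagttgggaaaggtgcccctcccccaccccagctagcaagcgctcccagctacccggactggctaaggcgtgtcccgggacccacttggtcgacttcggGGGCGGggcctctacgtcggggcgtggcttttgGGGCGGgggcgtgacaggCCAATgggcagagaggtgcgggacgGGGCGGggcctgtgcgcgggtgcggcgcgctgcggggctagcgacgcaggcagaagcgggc
The Dag1 window holds 3 GGGCGG boxes and 1 CCAAT box within the last 87 bases before the gene start, the Lama2 window holds 1 GGGCGG box that begins 17 bases after the start, and the Lamb2 window holds neither box.

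The targeted gene was lower on every KO array. Srebf1 had log2 intensities of 8.11, 8.06 and 8.04 in KO nerves, against 9.53, 9.55 and 9.70 in wild-type nerves, a log2 fold change of -1.52 ± 0.11 (SE, limma adjusted p = 0.0497). The position of its probes against the deletion is unknown here. It was the 1 gene of 22180 (0.00451%) past an adjusted p of 0.05. The Schwann cell markers Mbp and Pmp22, which encode myelin proteins, were bright on all arrays, at the 99.8th and 99.9th percentile of mean intensity. Skeletal muscle genes were also among the brightest, with Acta1 and Atp2a1 at the 99.9th percentile, while Tnnt1 of the same list lay at the 51.1st. The 10 laminin and receptor genes lay between the 95.5th and the 99.6th percentile. Brightness depends on the probes, so levels are not compared between genes.

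None of the 10 genes passed the test, and with all arrays the data bound the change of 9 of them to less than 1.5-fold. The smallest limma adjusted p among them was 0.890. Of the 10, 0 had an unadjusted p under 0.05, where 5.83% of all genes lay, and 0 of 10 met the criterion stated with the study, at least 1.5-fold change with an unadjusted p under 0.05, which 1.19% of all genes met. In 0 of 10 were the KO and wild-type arrays fully apart, against 12.3% of all genes. The means were higher in KO for 4 genes and lower for 6, and over all genes 43.1% were higher. That count of 4 was 2 without wild-type replicate 1 and 7 without wild-type replicate 2. The median log2 fold change was -0.06 over the 10, -0.03 over all genes and also -0.06 over the brighter 50% of genes. For 9 of the 10 the limma 95% interval, taken for each gene on its own, lay inside 1.5-fold in both directions, and Lamb2 was the exception. The bound rests on single arrays: 6 genes were inside it without KO replicate 2, where Lama4, Itga7 and Itgb4 also reached past it, and the same 6 without wild-type replicate 1. Leaving out any other array left 7 or 8 inside. As whole nerve was measured, fewer cells of a type and less RNA per cell cannot be told apart.

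**Figure D1:**
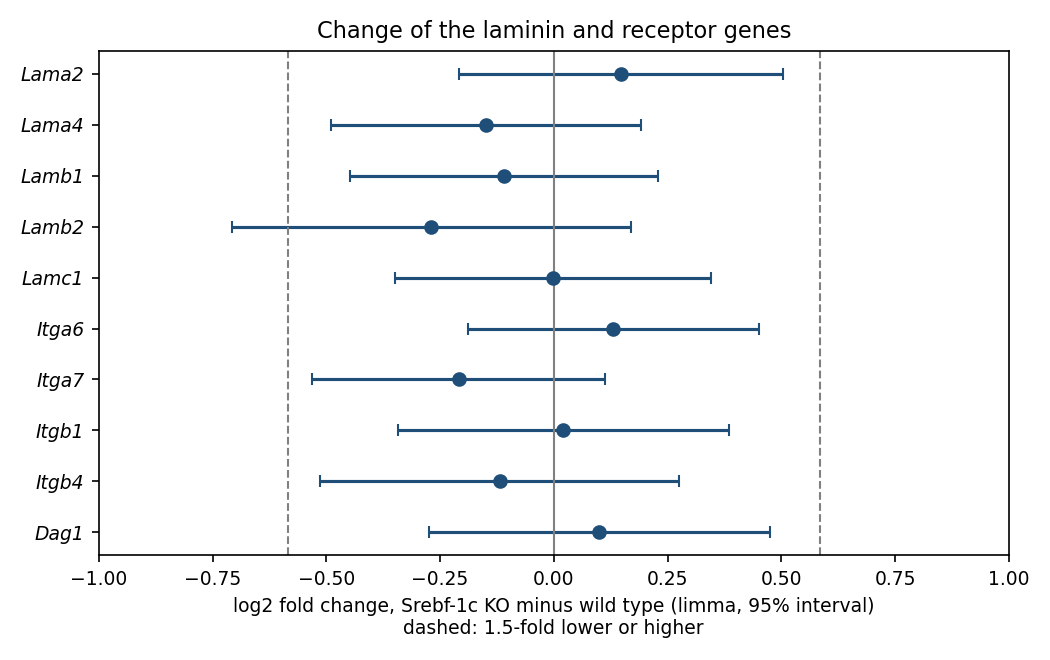
Log2 fold change of each of the 10 genes, Srebf-1c KO minus wild type, on the horizontal axis, with limma 95% intervals (3 arrays per genotype). All 10 intervals cross 0, and the interval of Lamb2 is the one that reaches past the dashed line of a 1.5-fold fall.

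Among the alpha chains, Lama2 and Lama4 had fold changes of opposite sign, both with intervals that include no change. Lama2 encodes the chain that defines the main Schwann cell laminin, and its loss causes muscular dystrophy with nerve defects. It had log2 intensities of 11.07, 11.33 and 11.42 in KO nerves, against 11.05, 11.33 and 10.99 in wild-type nerves. The highest array was a KO and the lowest a wild type, but the groups overlapped. The log2 fold change was 0.15 ± 0.15 (SE), a ratio of 1.11 with a 95% interval of 0.865 to 1.42. Lama4, the alpha chain of another Schwann cell laminin that is also found in vessel walls, had 10.79, 11.15 and 10.83 in KO nerves, against 10.93, 11.09 and 11.20 in wild-type nerves. KO replicates 1 and 3 lay below every wild-type array while KO replicate 2 lay between wild-type replicates 2 and 3. The log2 fold change of Lama4 was -0.15 ± 0.14 (SE), a ratio of 0.902 with an interval of 0.713 to 1.14.

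Of the beta chains, which link alpha and gamma in the trimer, Lamb2 had the lowest fold change of the 10 genes. Lamb1, the usual beta chain of Schwann cell laminin, had log2 intensities of 11.41, 11.24 and 11.29 in KO nerves, against 11.22, 11.65 and 11.40 in wild-type nerves. All 3 KO values of Lamb1 fell inside the wild-type range, with a ratio of 0.927 (95% interval 0.733 to 1.17). Lamb2, the beta chain typical of the neuromuscular junction, the kidney filter and vessel walls, had 10.49, 11.04 and 10.69 in KO nerves, against 10.75, 11.10 and 11.18 in wild-type nerves. KO replicates 1 and 3 were the lowest arrays, and KO replicate 2 stood with the wild-type nerves. Lamb2 had a log2 fold change of -0.27 ± 0.19 (SE, limma adjusted p = 0.892), a ratio of 0.830 whose interval of 0.613 to 1.12 includes a 1.5-fold fall. It also had the widest spread, with the brightest array 1.61-fold above the dimmest, where the other 9 genes spanned 1.30-fold to 1.47-fold.

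Lamc1, the gamma chain of all Schwann cell laminins, without which Schwann cells in mice fail to sort axons, had nearly equal means. Its log2 intensities were 11.01, 11.34 and 11.10 in KO nerves, against 10.95, 11.27 and 11.24 in wild-type nerves. The log2 fold change was -0.0020 ± 0.15 (SE), and the 95% interval of the ratio ran from 0.785 to 1.27.

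**Figure D2:**
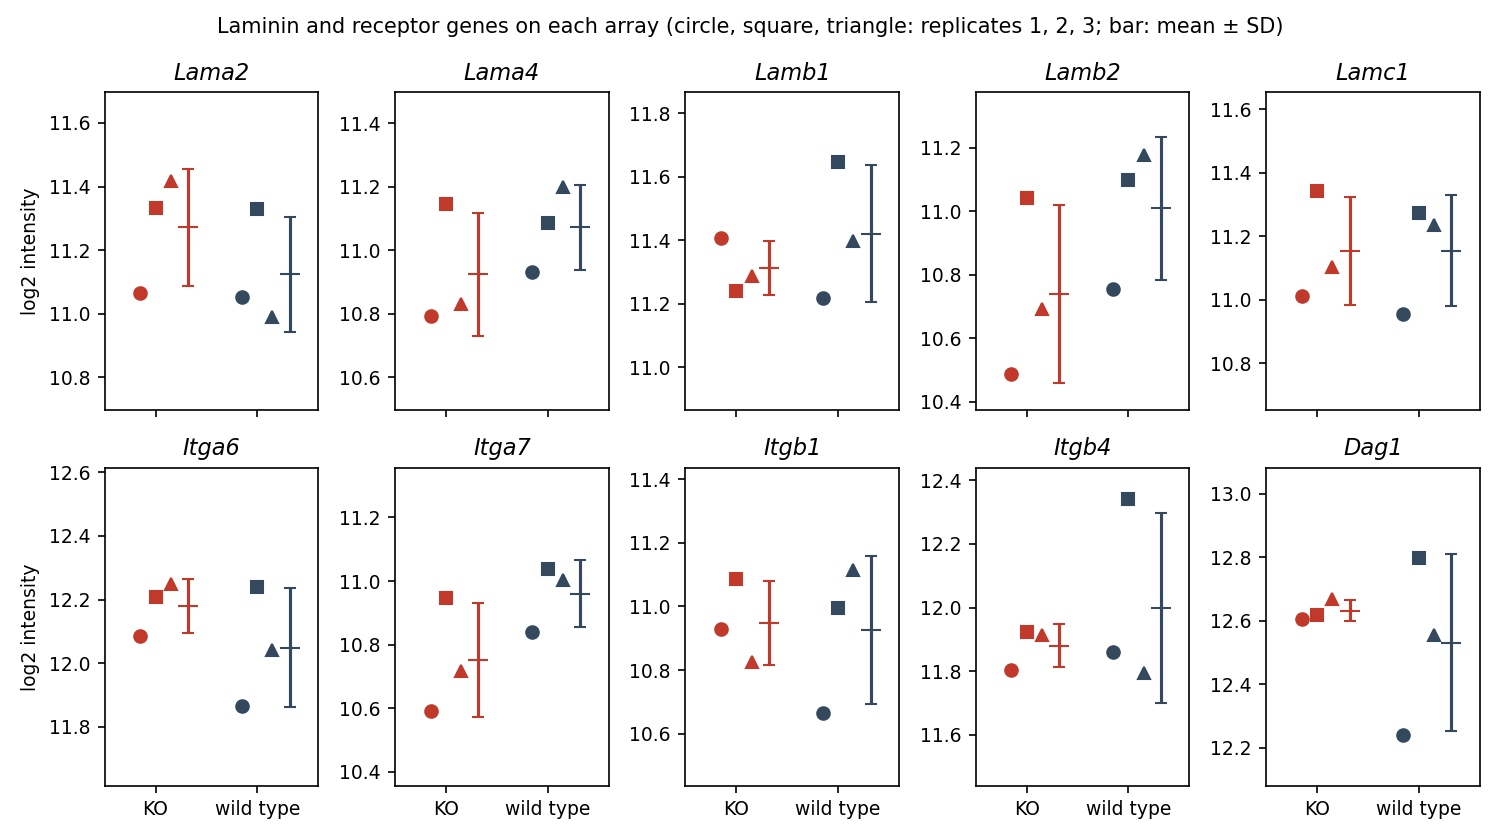
Log2 intensity of the 10 genes on each array, Srebf-1c KO left (red) and wild type right (dark), with circle, square and triangle for replicates 1, 2 and 3 and a bar for mean ± SD. Every panel spans 1 log2 unit, and the groups overlap in all 10.

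The alpha integrin subunits differed in sign, with Itga6 higher and Itga7 lower in the KO mean. Itga6 encodes a laminin-binding subunit that pairs with either beta subunit measured here. It had log2 intensities of 12.08, 12.21 and 12.25 in KO nerves, against 11.87, 12.24 and 12.04 in wild-type nerves, a log2 fold change of 0.13 ± 0.14 (SE). All 3 KO arrays lay above wild-type replicates 1 and 3, and KO replicate 3 also lay above wild-type replicate 2. Itga7, which pairs with Itgb1 and is also a major laminin receptor of muscle fibres and smooth muscle, had 10.59, 10.95 and 10.72 in KO nerves, against 10.84, 11.04 and 11.00 in wild-type nerves. Its log2 fold change was -0.21 ± 0.14 (SE, limma adjusted p = 0.890), the smallest p of the 10 genes. KO replicates 1 and 3 lay below every wild-type array and KO replicate 2 lay above wild-type replicate 1. The ratio was 1.10 (95% interval 0.877 to 1.37) for Itga6 and 0.865 (0.692 to 1.08) for Itga7.

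The beta subunits overlapped widely between genotypes. Itgb1, the common partner of many alpha subunits, needed by Schwann cells for axon sorting, had log2 intensities of 10.93, 11.09 and 10.82 in KO nerves, against 10.67, 11.00 and 11.11 in wild-type nerves. The KO values of Itgb1 lay inside the wild-type range, with a ratio of 1.01 (95% interval 0.788 to 1.31). Itgb4, which with Itga6 forms a receptor of mature myelinating Schwann cells and of the perineurium, had 11.80, 11.92 and 11.91 in KO nerves, against 11.86, 12.34 and 11.80 in wild-type nerves. Wild-type replicate 2 stood well above the other arrays of both genotypes, and the ratio was 0.921 (0.701 to 1.21). Without that array the log2 fold change of Itgb4 was 0.052, of the other sign. A further probe set that carries Itgb4 beside other symbols was not used.

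Dag1 encodes dystroglycan, whose outer part binds laminin through sugar chains and whose membrane part ties to dystrophin relatives inside the cell. It had log2 intensities of 12.61, 12.62 and 12.67 in KO nerves, against 12.24, 12.80 and 12.55 in wild-type nerves. The KO values were close together, with an SD of 0.03 against 0.28 in wild type, and all lay inside the wild-type range. The log2 fold change was 0.10 ± 0.16 (SE), a ratio of 1.07 with a 95% interval of 0.826 to 1.39. Wild-type replicate 1 set the low end, and without it the log2 fold change was -0.045.

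Across the 6 arrays most of the genes fell into a pair of patterns that did not follow genotype. Lama4, Lamb2, Lamc1, Itga7 and Itgb1 had the same 3 lowest arrays, KO replicates 1 and 3 and wild-type replicate 1. That set of lowest arrays was shared by 10% of all genes and by 16.2% of the brighter 50% of genes. Lama2, Itga6, Itgb4 and Dag1 had KO replicate 1 and wild-type replicates 1 and 3 as their lowest, as did 3.45% of all genes and 4.58% of the brighter 50%. Lamb1 stood alone, with KO replicates 2 and 3 and wild-type replicate 1 lowest. These sets were read off the values, so they describe these arrays and were not tested.

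Marker lists of other cells in and near the nerve moved across the arrays as well. A list score is the mean over its genes of log2 intensity minus each gene's mean over the 6 arrays. The pericyte and smooth muscle score over 10 genes was -0.08, 0.32 and -0.78 in KO nerves, against -0.28, 0.26 and 0.55 in wild-type nerves, with the same 3 lowest arrays as Lama4, Lamb2, Lamc1, Itga7 and Itgb1. So had the endothelial, perineurial, fibroblast and adipocyte scores. Summed intensity of the 10 pericyte and smooth muscle markers ran from 17324 to 27114 in KO nerves, against 21222 to 31656 in wild-type nerves. Of these 10 markers, 8 had a lower mean in KO, where 43.1% of all genes had a higher one. Those 3 arrays were the highest for the score of 21 skeletal muscle genes, which was 0.28, -0.35 and 0.42 in KO nerves, against 0.85, -0.90 and -0.29 in wild-type nerves, and its summed intensity spanned 80333 to 132562 in KO nerves, against 55215 to 145082 in wild-type nerves. With the skeletal muscle score as a covariate the log2 fold change was -0.11 for Lama4, -0.20 for Lamb2, 0.05 for Lamc1, -0.17 for Itga7 and 0.07 for Itgb1. With the adipocyte score it was -0.12 for Lama4, -0.23 for Lamb2, 0.02 for Lamc1, -0.19 for Itga7 and 0.05 for Itgb1, and 0 members passed with either. The myelinating Schwann score over 9 genes was 0.10, -0.09 and 0.08 in KO nerves, against -0.13, 0.21 and -0.16 in wild-type nerves. It and the Remak Schwann score were lowest in KO replicate 2 and wild-type replicates 1 and 3, which neither set of genes matched in full. Lama2, Itga6, Itgb4 and Dag1 shared wild-type replicates 1 and 3 with these scores. Itgb4 and Dag1, like both scores, were highest in wild-type replicate 2, whereas Lama2 and Itga6 were highest in KO replicate 3. The part of vessel, sheath and Schwann cell content in the members' values was not tested.

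**Figure D3:**
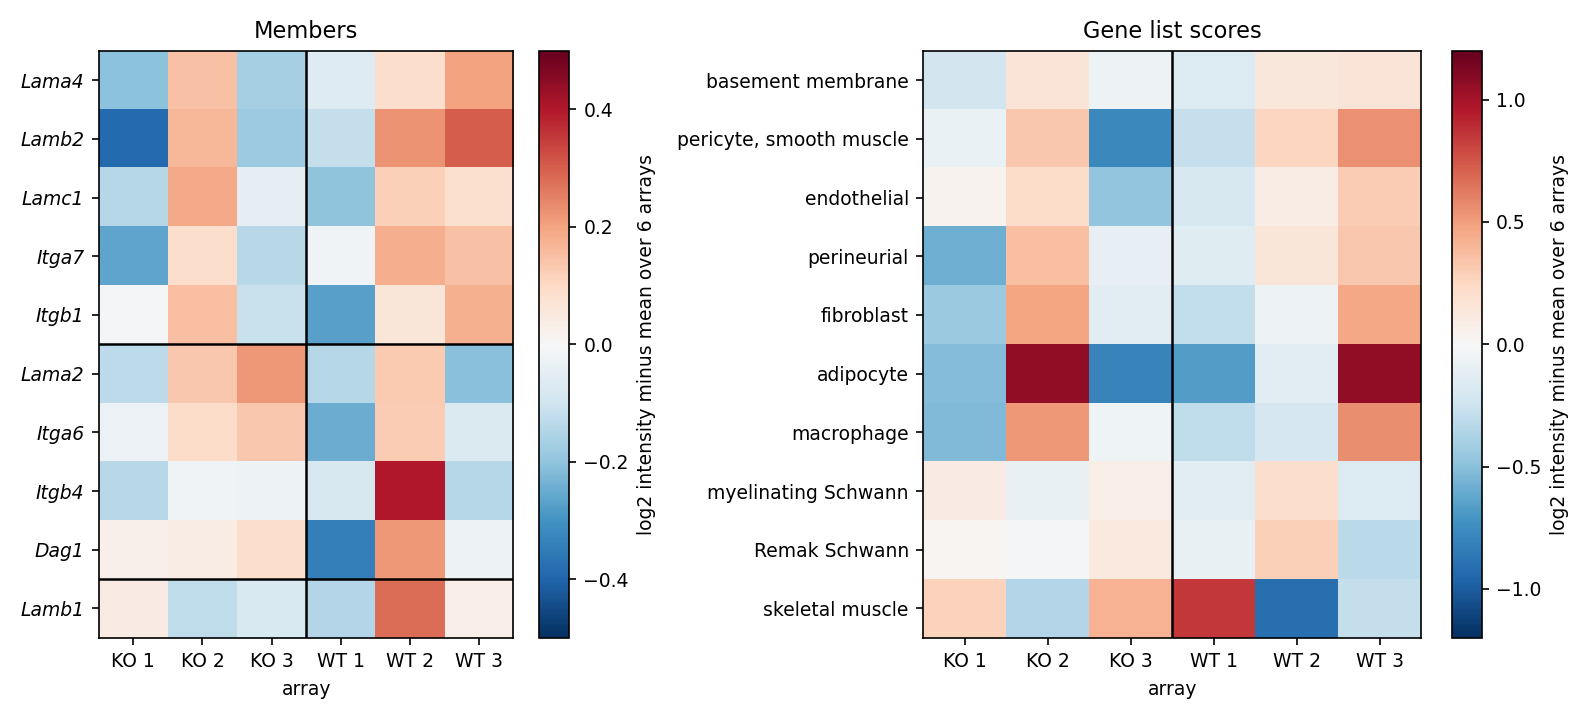
Log2 intensity minus the mean over 6 arrays, for the 10 genes (left, grouped by shared lowest arrays) and for gene list scores (right), with the 3 Srebf-1c KO arrays left of the 3 wild-type arrays in each panel. Columns KO 1, KO 3 and WT 1 hold the 3 lowest values of the upper 5 genes and of the basement membrane, vessel, perineurial, fibroblast and adipocyte scores, and the colour scales of the panels differ.

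Because alternative chains can replace each other in a trimer or receptor, the log2 ratio of 4 pairs was compared within arrays. The pairs were picked by role after the members' values were seen. The ratio of Itga6 over Itga7, centred on its mean over the arrays, was 0.23, 0.0035 and 0.27 in KO nerves, against -0.23, -0.06 and -0.22 in wild-type nerves. Each KO array thus lay above each wild-type array, by 0.34 in the mean on the log2 scale, a 1.27-fold difference in the ratio (exact permutation p = 0.1, two-sided, Benjamini-Hochberg adjusted over the 4 pairs p = 0.4). An exact p of 0.1 is the smallest that 3 arrays against 3 allow, so this comparison could not reach 0.05. Among all pairs of the 1110 genes in the top 5% of intensity, 11.6% were as fully apart. The difference in the ratio lay between 0.29 and 0.42 with each array left out in turn. Such a ratio shows relative level, not which of the subunits moved.

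The other 3 pairs overlapped between genotypes. Lama2 over Lama4 had a difference of 0.30 on the log2 scale (centred means 0.15 ± 0.21 in KO and -0.15 ± 0.23 in wild type, SD, n = 3 each, exact permutation p = 0.2, two-sided, adjusted p = 0.4). Lamb1 over Lamb2 differed by 0.16 (exact permutation p = 0.5, two-sided, adjusted p = 0.6), and Itgb4 over Itgb1 by -0.14 (exact permutation p = 0.6, two-sided, adjusted p = 0.6). The sign for Lamb1 over Lamb2 turned with 1 array left out, to -0.01.

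**Figure D4:**
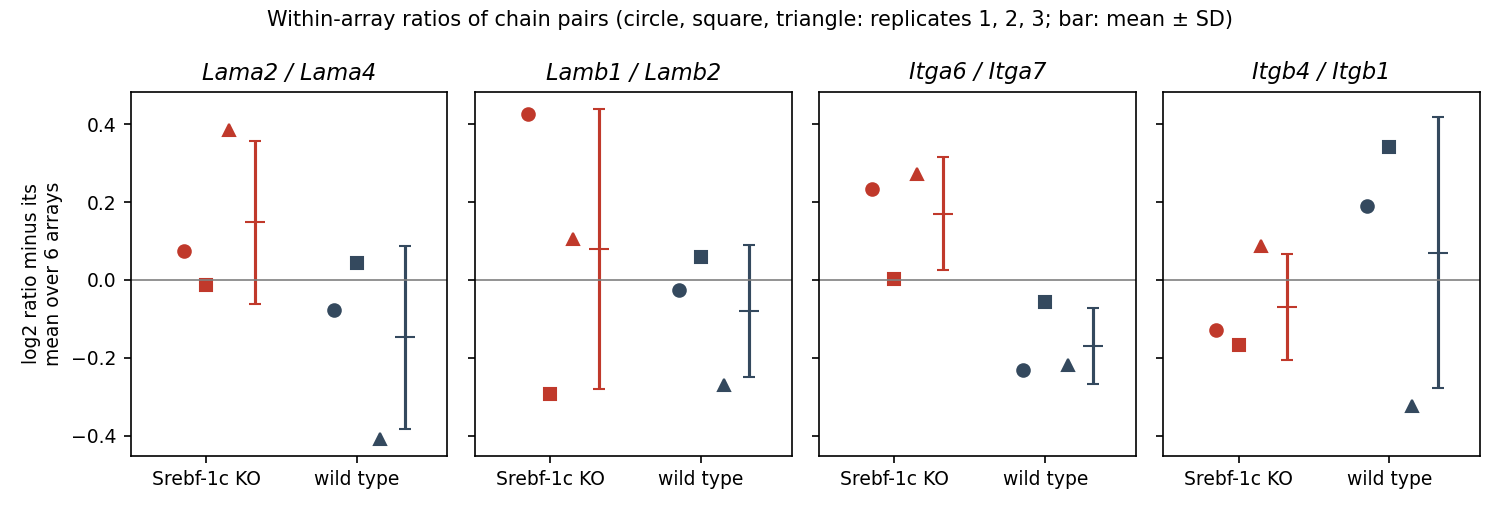
Log2 ratio of the 4 chain pairs within each array, minus its mean over the 6 arrays, Srebf-1c KO left (red) and wild type right (dark), with circle, square and triangle for replicates 1, 2 and 3 and a bar for mean ± SD. The genotypes are fully apart for Itga6 over Itga7 and overlap for the other 3 pairs.

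In the wider basal lamina and receptor machinery 1 of 22 further basement membrane genes, Npnt, had an unadjusted p under 0.05. So had 2 of 21 other integrin genes, Itgb3 and Itgae. The lists of 5, 13, 14, 8 and 21 other genes gave 0, and 5.83% of all genes lay under that limit. In these lists 0 genes passed an adjusted p of 0.05, which 1 of all 22180 genes passed. Of 5 other laminin chain genes, 2 had a higher and 3 a lower mean in KO, with a median log2 fold change of -0.05. Over all genes 43.1% had a higher mean, the share to set beside each count by direction here and below. Lama5, the alpha chain of mature vessel basement membranes, stood at -0.21 ± 0.17 (SE), and Lama1, an alpha chain of the embryo, at 0.10 ± 0.14. Of 22 further basement membrane genes 8 were higher and 14 lower, with a median of -0.11. Type IV collagen, nidogen and perlecan, the partners that complete the laminin sheet, gave 0 genes at an unadjusted p under 0.05. Col4a1, a type IV collagen chain, stood at -0.12 ± 0.17, Nid1 at 0.06 ± 0.22 and Hspg2, which encodes perlecan, at 0.0016 ± 0.15. These 3 were picked for their roles.

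At an unadjusted p under 0.05, 1 of those 22 basement membrane genes was found, against 5.83% of all genes in either direction. It was Npnt, which encodes nephronectin, a matrix ligand of integrins. Npnt had log2 intensities of 8.39, 8.56 and 8.62 in KO nerves, against 9.11, 8.90 and 9.22 in wild-type nerves, with all KO arrays below all wild-type arrays. The groups were fully apart, in either direction, for 3 of the 22 genes, against 12.3% of all genes. The log2 fold change of Npnt was -0.55 ± 0.14 (SE, limma adjusted p = 0.850), just short of 1.5-fold. Col4a3, the next by p in that list, stood at 0.19 ± 0.12.

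Integrin subunits other than Itga6, Itga7, Itgb1 and Itgb4 mostly had lower means in KO, 18 of 21. Over all genes 43.1% had a higher mean in KO. The median log2 fold change of these 21 was -0.10, against -0.03 for all genes. Of the 21, 2 had an unadjusted p under 0.05, both lower, where 3.49% of all genes lay in that direction. Itgb3, a beta subunit of platelet, vessel and macrophage receptors, had 8.05, 8.33 and 8.12 in KO nerves, against 8.34, 8.84 and 9.02 in wild-type nerves, a log2 fold change of -0.56 ± 0.19 (SE, limma adjusted p = 0.850). Itgae, a subunit of intraepithelial lymphocytes, had 5.98, 5.95 and 5.87 in KO nerves, against 6.30, 6.45 and 6.74 in wild-type nerves, a log2 fold change of -0.56 ± 0.14 (SE, limma adjusted p = 0.850). Itgae was dim, at the 29.6th percentile of intensity. The groups of both genes did not overlap, for Itgb3 by a narrow margin. No overlap in either direction was seen for 2 of the 21, against 12.3% of all genes. The score of these integrins was -0.20, 0.12 and -0.17 in KO nerves, against -0.14, 0.11 and 0.28 in wild-type nerves, with the 3 lowest arrays that the pericyte and smooth muscle score also had.

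Partners of dystroglycan gave no call either. In the complex of sarcoglycans, dystrophin relatives and their adaptors, 8 of 13 genes were higher and 5 lower, the median log2 fold change was 0.04, and 0 had an unadjusted p under 0.05. Sgce, a sarcoglycan, stood at 0.40 ± 0.23 (SE) and Dtnb, a dystrobrevin, at -0.26 ± 0.15. Drp2 and Utrn, the dystrophin relatives that join dystroglycan to the Schwann cell interior, stood at -0.0082 ± 0.12 and 0.02 ± 0.14. Of 14 genes that build the sugar chains of dystroglycan 4 were higher and 10 lower, with a median of -0.05 and 0 at an unadjusted p under 0.05. The enzyme gene B3galnt2 stood at -0.34 ± 0.21 and Dpm3, a subunit of dolichol-phosphate-mannose synthase, at -0.20 ± 0.12. Drp2 and Utrn were picked for their roles.

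Of 8 other laminin receptor genes, 4 were higher and 4 lower, with a median of -0.07. Bcam, a receptor for the Lama5 chain, stood at -0.24 ± 0.16 (SE) and Sdc4, a syndecan, at -0.15 ± 0.11. Adgrg6, a receptor that binds Schwann cell laminin and starts myelination, stood at 0.11 ± 0.18 and was picked for that role. Of 21 genes of integrin signalling inside the cell, 5 were higher and 16 lower, with a median of -0.05 and 0 at an unadjusted p under 0.05. Bcar1, an adaptor of focal adhesions, stood at -0.23 ± 0.12 and Vcl, which encodes vinculin, at -0.24 ± 0.16.

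The genes closest in profile to Lama2, Itga7 and Itgb4 were found by the root mean square difference of centred log2 values over the 6 arrays, among brighter genes with a similar spread. For Lama2 they were Apod at 0.0585, Kantr at 0.0603 and Apba1 at 0.0606 log2 units. For Itga7 they were Txndc11, Rtcb and Zc3h7a at 0.0206, 0.0217 and 0.0245. For Itgb4 they were Zfp219 at 0.0127, Tmem138 at 0.0271 and Tnrc18 at 0.0357. With 6 arrays and many candidates, 6975 for Lama2, 7278 for Itga7 and 6031 for Itgb4, close matches are many.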

How the data were processed

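The deposited values are probe set intensities of 6 arrays that the authors computed with RMA in TAC and Partek software, per the series' design text. Their range of 3.67 to 23738 points to a linear scale. The sources used here give no software versions, and mm8 is the build in the submitters' processing notes, so probe set positions are not printed. Groups follow sample titles and the genotype field, against a source field that reads wild type for all samples.

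Log2 was taken with no pseudocount. Of 41077 probe sets, 23521 carried 1 symbol, and the brightest per symbol gave 22180 genes, dim ones included. Median intensity per array was 115.5 to 122.6, and the number of arrays limits precision. All genes were fitted in limma 3.58.1 on R 4.3.3 (lmFit, eBayes) as KO minus wild type, two-sided, with Benjamini-Hochberg adjustment, and the fit was tested on simulated data. Named beside the members were Srebf1, the 2 genes with the smallest p of each pathway list, and genes said to be picked for their roles. Cell type lists served for scores. Mbp and Pmp22 were named as a check of the tissue, with Acta1, Atp2a1 and Tnnt1 for muscle. Members, lists and tests were chosen with earlier results of these data known. Promoters are from RefSeq, which all 10 members matched by Entrez identifier. Python 3.11.15 with pandas 2.3.3 and matplotlib 3.10.9 was used for joins and plots. Alternatives were other scalings, filters, variance models, probe set rules, a pseudocount, covariates, a replicate block and leaving out each array.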

Additional observations from a re-analysis of the deposited data

How the results depend on the processing

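In every alternative, 0 of the 10 genes passed an adjusted p of 0.05 (or 0.10), 0 had an unadjusted p under 0.05 and 0 met the criterion of the study at 1.5-fold or 2-fold, and the smallest adjusted p of a member was 0.683, with array weights. The median log2 fold change of the members ran from -0.10 with arrays at 1 median to 0.02 with the pericyte and smooth muscle score as a covariate, which was chosen after seeing that it orders the arrays like 5 members and so tests nothing about tissue makeup, and from -0.15 to 0.05 with each array left out. Arrays at 1 median moved the median of all genes to -0.08, against -0.03. The number of members with a higher mean in KO ran from 2 without wild-type replicate 1 to 7 without wild-type replicate 2, so their split by direction is not stable. Over 14 settings on all arrays the direction held for 8 of 10 genes, but not all of these settings could change it. The dim-gene filters, the ANOVA, the intensity trend with robust prior, the probe set rules and the replicate block left each member's fold change unaltered by construction. Itgb1 turned to -0.012 after repeated quantile normalization, -0.025 with arrays at 1 median and -0.054 with array weights. Lamc1 turned to 0.049 with the muscle score, 0.023 with the adipocyte score and 0.086 with the pericyte and smooth muscle score as a covariate. With each array left out, Lamc1 ran from -0.10 to 0.068, Itgb1 from -0.11 to 0.12, Lamb1 from -0.21 to 0.0036, Itgb4 from -0.22 to 0.052 and Dag1 from -0.045 to 0.23. The other 5 kept their sign but moved in size: Lama2 ran from 0.075 to 0.25, Itga6 from 0.039 to 0.23, Lama4 from -0.26 to -0.083, Lamb2 from -0.42 to -0.14 and Itga7 from -0.31 to -0.13. Of the 10 genes, 6 to 8 had an interval inside 1.5-fold with an array left out and 8 to 10 in the other settings, against 9. The cause of these shifts was not tested. The deviations of same-numbered samples from their group means had r = 0.117, 0.012 and -0.233 across genes. Deviations from a mean of 3 arrays are not independent, so these values cannot settle whether the numbers pair the samples. The main fit used no pairing. With the replicate block 0 members passed. The block cannot change a fold change in this balanced design, so the median of -0.06 was fixed in advance.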
